A study of Mus musculus with 15 samples.

Results

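The genes described here were 29 genes of the peroxisome, chosen by name from a list of its oxidation enzymes, membrane transporters and assembly factors, out of 46078 genes in the deposited table. All 29 passed the filter on low counts. They were measured by mRNA-Seq in the podocyte fraction of the kidney cortex, made by binding digested cortex cells to beads with antibodies to nephrin, a protein of the podocyte slit diaphragm. The young group held 5 libraries from uninjected male C57BL/6J mice aged 4 months. The aged mice were male C57BL/6J, aged 21 months when they were randomized, and received 12 mg/kg of antibody into the peritoneum each week for 8 weeks. The aged IgG2a group (4 libraries) received the isotype control antibody 2A3, and the aged aPD1ab group (4 libraries) received RMP1-14, a rat antibody that blocks PD-1. The titles of the aPD1ab samples give 47 days. No genetic modification is named for any group. Since the young mice had no injections, age and injection cannot be told apart in a comparison with them. The labels name 5 mice a group, and replicate numbers here only name libraries.

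Peroxisomes are single-membrane organelles that shorten very long, branched and dicarboxylic fatty acids by beta-oxidation, remove the methyl branch of phytanic acid by alpha-oxidation and break down the hydrogen peroxide that their oxidases make. Their enzymes are made in the cytosol and imported folded. Peroxins, the products of the Pex genes, build the membrane, carry the enzymes in and pull the empty receptors back out. In the kidney the organelle is known to be most abundant in the proximal tubule, whose cells burn fatty acids. Ppara, a nuclear receptor, is known to drive many of its oxidation genes.

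The address that sends an enzyme to the peroxisome lies in most cases in its last residues, which Pex5 recognises. To show how far the enzymes share that address, the ends of the coding sequences of the enzymes to which the results below return most often are shown, in GENCODE M21 transcripts on GRCm38. The last 9 codons and the stop codon are given 5′ to 3′, and capitals mark the last 3 codons.
Ehhadh: ttggcaggaccccatagcAGCAAACTGtga
Pecr: gaatcttttaagaagaaaGCCAAGCTCtaa
Scp2: cagcttcagccgggcaaaGCTAAGCTGtga
Hao2: ccagacctgattcagttcTCCAGATTAtaa
Acox2: ctgatgcaaagctggaaaCCCAAGCTGtga
Cat: atggctgcgaagggaaaaGCTAACCTGtaa
Amacr: gaaagtgataagctaaaaGCCAATCTCtga
Acaa1a: gctgcggtctttgaatacCCTGGGAACtga
Acaa1b: gctgcggtctttgaatacCCTGGGAACtga

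The simple form of the address is a codon for serine, alanine or cysteine, then one for lysine, arginine or histidine, then one for leucine or methionine. It was found in 6 of the 29 genes (Ehhadh, Hsd17b4, Scp2, Decr2, Pecr and Hao2), or 20.7%, and in 112 of 21564 protein-coding genes, or 0.519%. All 6 were among the 18 enzymes, transporters and channels (33.3%), of which the other 12 lacked it, as did the 11 peroxins. The ends of Cat and Amacr have an asparagine codon in the middle position, and that of Acox2 opens with a proline codon. Acaa1a and Acaa1b end alike, and their coding sequences were identical at 1231 of 1275 aligned positions (96.5%), so reads can be split between them in counting and the values of this pair are uncertain. In these genes a motif of the type 2 address, which Pex7 recognises near the start of a protein, was found in Acaa1a, Acaa1b and Phyh. Its share over all protein-coding genes was not counted. The genes lie at chr16:21761287-21787807 (Ehhadh), chr1:72259167-72284314 (Pecr), chr4:108043839-108144998 (Scp2), chr3:98874521-98893239 (Hao2) and chr14:8225511-8259353 (Acox2). Cat lies at chr2:103453849-103485160, Amacr at chr15:10981756-10996626, Acaa1a at chr9:119339676-119350299 and Acaa1b at chr9:119148023-119157093 (GRCm38). 

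The response element to which PPAR receptors are known to bind is a direct repeat, AGGTCANAGGTCA. RefSeq promoter windows (GRCm38.p6, 250 bases before to 50 after a start site, either strand) were matched for 23 of the 29 genes. A match with at most 2 differing bases was found in 2 of their 28 windows (7.14%), those of Cat and Acox2, and in 1268 of all 32851 windows (3.86%). The single motif AGGTCA, which an exact repeat holds, was in 3 of the 28 windows (10.7%; Scp2, Phyh and Cat), below the 16.3% of all windows. The match of Cat, in capitals, is at 204 to 192 bases before the start, in chr2:103485336-103485365 on the minus strand.
Cat promoter: actctcagAGGTCAGAGAACAccagcaggg

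The libraries held 19912969 to 32717100 counts. Values are CPM, the usual depth-scaled counts, after TMM scaling, and RPKM (CPM per kilobase of exon) where genes are compared with each other. By RPKM over the 13 libraries the highest members were Phyh (mean 148), Cat (139), Scp2 (68.5), Pecr (67.1) and Ehhadh (59.2), and the lowest were Pex14 (2.05) and Abcd2 (1.14). The highest peroxin was Pex19 (16.05), followed by Pex2 (15.98), Pex5 (13.4) and Pex6 (12.8). Over the 13 libraries Phyh ranged from 77.9 to 217 RPKM and Cat from 54.6 to 269, so their ranges overlapped, as did those of Scp2, Pecr and Ehhadh. These ranges pool the 3 groups. Within every aged IgG2a library Phyh was above Cat, and Scp2 was above Pecr and Ehhadh. Neither order held in every young or every aPD1ab library. The order below Cat differed between groups. Ehhadh came next in young libraries (87.8 ± 21.25 RPKM, SD, n = 5), Scp2 in aged IgG2a (42.3 ± 15.3, n = 4) and Pecr in aPD1ab libraries (91.8 ± 45.4, n = 4), and Ehhadh stood at 22.6 ± 21.3 and 60.01 ± 40.4 in the aged groups.

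The libraries did not fall apart by group label alone. Aged IgG2a replicate 1 stood apart from the other 3 aged IgG2a libraries: it was above all of them in 28 of 29 members, the exception being Abcd2. It lay inside the young range in 14 members and inside the aged aPD1ab range in 21. Aged IgG2a replicates 2 to 4 lay below all 10 other libraries in 24 of 29 members, against 16.5% of the 16330 genes tested. Aged aPD1ab replicate 2 was the highest of all 13 libraries in 25 members. Results are therefore given with and without aged IgG2a replicate 1. The share of all genes was not counted for the patterns of aged IgG2a replicate 1 and aged aPD1ab replicate 2. Whether those patterns belong to the members or to the libraries as a whole was not tested.

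The fraction also held RNA of cells other than podocytes, and its make-up differed between the same libraries. The summed CPM of 10 podocyte markers was 896 to 1451 in young, 537 to 731 in aged IgG2a and 277 to 877 in aged aPD1ab libraries. Nphs1, which encodes nephrin, the antigen of the sort, was present in all, at 43.2 to 81.4, 4.15 to 19.4 and 7.61 to 42.8 CPM. The sum of 15 proximal tubule markers was 10610 to 16190 in young libraries, 7823 in aged IgG2a replicate 1, and 1534, 2377 and 1937 in replicates 2 to 4. It was 8058, 23010, 8859 and 8308 in the aged aPD1ab libraries, where replicate 2 was again the highest. The sum of 6 macrophage markers ran the other way, at 1135 to 1952 in young, 1597 in aged IgG2a replicate 1, 5139, 4720 and 3853 in replicates 2 to 4, and 1209 to 2853 in aged aPD1ab libraries. 0 of these markers were at or under a floor of 3 counts. The mitochondrially encoded share of counts was 38.7% to 54.9% in aged IgG2a replicates 2 to 4 and 20.4% to 38.5% in the other libraries. The part of these markers in the results below was not tested beyond 1 fit that carries the proximal tubule score, which is given beside the counts. In bulk samples, fewer cells of a type and less RNA per cell cannot be told apart.

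**Figure D1:**
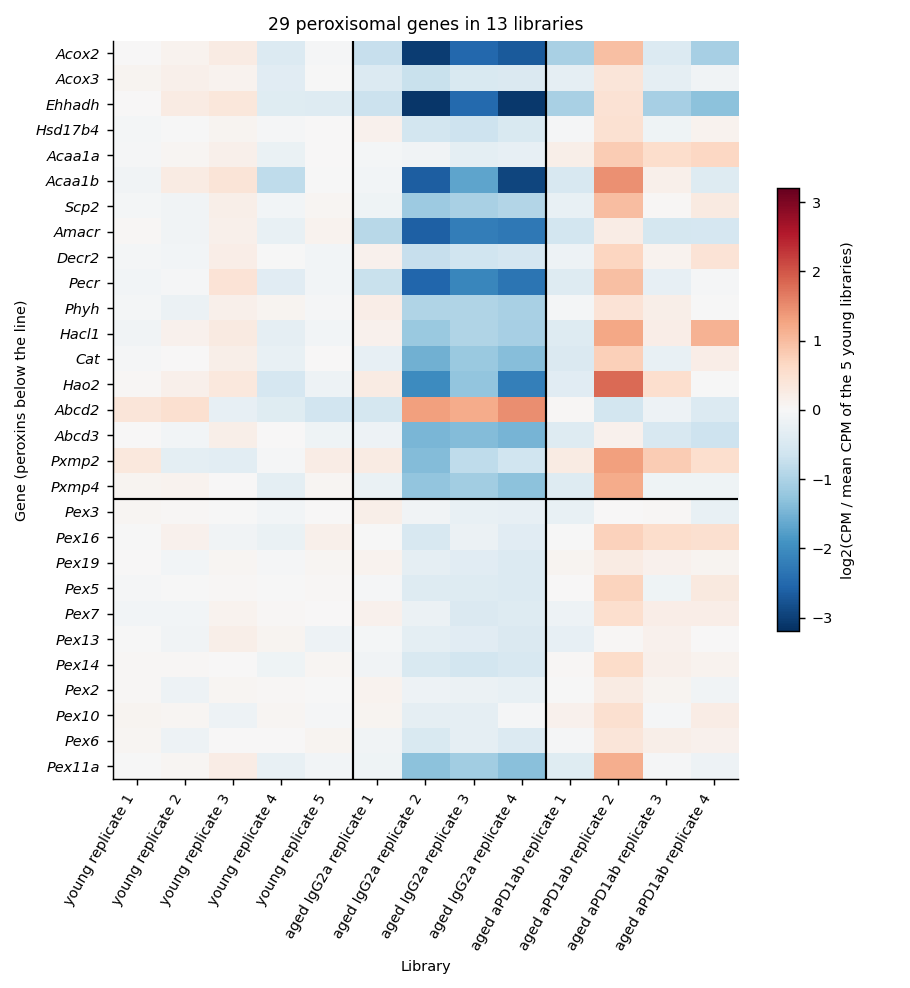
Colour shows log2 of each gene's CPM over the mean of the 5 young libraries, for 29 genes (rows, peroxins below the line) in 13 libraries (columns, groups divided by vertical lines). Aged IgG2a replicates 2 to 4 are the bluest columns, down to -3.11, Abcd2 is red in those libraries, and aged aPD1ab replicate 2 holds the highest value, 1.82.

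The first comparison asked how the genes stood in aged IgG2a-injected mice against young mice. Of the 29 members 7 decreased and none increased at an adjusted p under 0.05 (edgeR), where 7.61% of the 16330 genes tested were called lower and 6.36% higher. They were 6 enzymes, namely Acox2, Acox3 and Ehhadh of the core beta-oxidation spiral, Amacr, Pecr and the catalase gene Cat, and the transporter gene Abcd3. The other 8 enzymes did not pass, with adjusted p from 0.0637 (Scp2) to 0.33 (Acaa1a). At an unadjusted p under 0.05, 15 members were lower and 1 higher, against 17.8% and 15.7% of all genes. The log2 difference was negative for 28 of 29 members with a median of -0.50, against -0.02 for all genes. Without aged IgG2a replicate 1, 22 members were lower and 1 (Abcd2) higher, against 22.0% and 16.5% of 16630 genes. The median was then -0.64. Leaving out any 1 young library gave 1 to 4 lower, leaving out aged IgG2a replicate 2, 3 or 4 gave 1, and leaving out aged aPD1ab replicate 2 gave 11. For these fits the share of all genes was not counted. Amacr passed in each of these fits.

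The second comparison asked how aPD1ab-injected aged mice stood against IgG2a-injected aged mice. In the fit of all 3 groups 16 members were higher and 1 (Abcd2) lower, where 11.4% of genes were called higher and 6.14% lower. The 16 were 10 enzymes or membrane proteins (Acox2, Acaa1a, Scp2, Amacr, Decr2, Pecr, Hacl1, Cat, Pxmp2, Pxmp4) and 6 peroxins (Pex16, Pex19, Pex5, Pex14, Pex6, Pex11a). The median log2 difference was 0.74, against 0.00 for all genes, and 27 of 29 were positive. Without aged IgG2a replicate 1, 26 were higher and 1 lower, against 22.9% and 16.1% of genes, with a median of 0.94. In a fit of these groups alone, with aged IgG2a replicate 1 kept, none of the 29 members and none of 15530 genes passed (edgeR), though 20 members were higher and 1 lower at an unadjusted p under 0.05, against 15.7% and 12.2% of genes. In the fit of all groups every one of the 17 calls was lost without aged aPD1ab replicate 2, and likewise without aged IgG2a replicate 2, 3 or 4. Without aged aPD1ab replicate 4, 8 members were called higher, and Abcd2 did not pass without aPD1ab replicate 3 or 4. For the fits without one of these aPD1ab libraries or without aged IgG2a replicate 2, 3 or 4, the share of all genes was not counted. Whether the loss of calls there belongs to the members or to all genes was not tested.

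The third comparison set aPD1ab-injected aged mice against young mice. Acaa1a and Pex16 were higher and no member was lower, where 9.13% of genes were called higher and 8.64% lower. The median log2 difference was 0.18, against 0.01 for all genes. At an unadjusted p under 0.05, 3 members were higher and 0 lower, against 17.0% and 15.6% of genes. DESeq2 gave 3 higher and 0 lower, against 12.9% and 11.5% of genes, and limma voom with sample weights gave 2 and 4, against 13.4% and 12.7%. These member counts are near or below the share of all genes. Without aged IgG2a replicate 1 the counts were 3 and 0, against 13.1% and 11.6% of genes. All 3 comparisons come from the same libraries, and each pair of them shares a group.

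When the proximal tubule score was carried in the edgeR fit as a covariate, no member passed in the first or the second comparison. At an unadjusted p under 0.05, 4 members were then higher and 1 lower in the first, against 6.11% and 8.22% of genes, and 3 higher and 0 lower in the second, against 4.65% and 2.38%. In that fit 20 of 16330 genes passed in the first comparison and none in the second. The score was lowest in aged IgG2a replicates 2 to 4 (5.80 to 6.42 on the log2 CPM scale), while replicate 1 (8.03) lay inside the aPD1ab range of 7.95 to 9.58. In the third comparison 11 members were higher and 0 lower with the covariate, against 16.1% and 14.6% of genes.

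**Figure D2:**
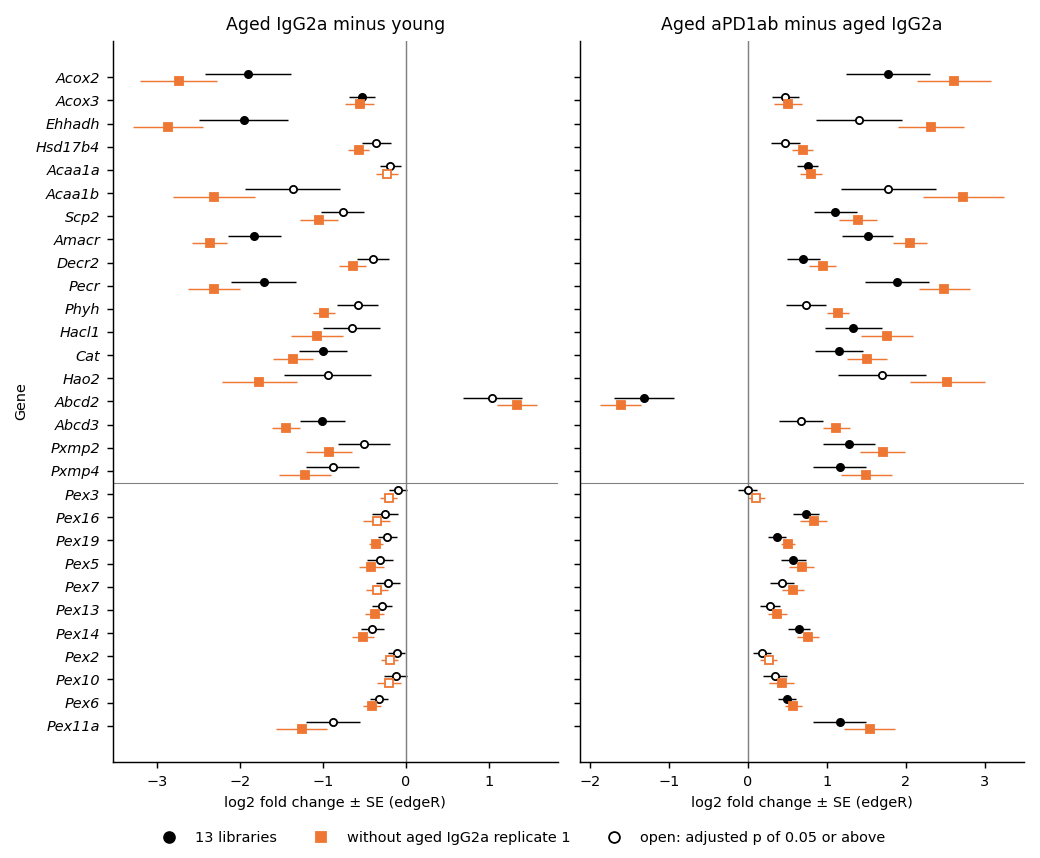
Points are log2 fold changes with their standard errors from edgeR for 29 genes, for aged IgG2a minus young (left) and aged aPD1ab minus aged IgG2a (right). Black circles use all 13 libraries and orange squares leave out aged IgG2a replicate 1; filled symbols passed at an adjusted p under 0.05, and Abcd2 is the only gene above 0 on the left and below 0 on the right with filled orange squares.

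The straight and branched chain beta-oxidation enzymes come first. Acox2, the oxidase that opens the shortening of bile acid precursors and branched chains, was at 27.4, 29.2, 32.9, 20.03 and 26.4 CPM in young libraries. It was at 16.4, 3.31, 4.74 and 4.22 in aged IgG2a and at 13.3, 53.0, 19.97 and 13.1 in aged aPD1ab libraries. All 4 aged IgG2a libraries were below every young one, and replicate 1 was above 2 of the aPD1ab libraries. Acox2 decreased 3.73-fold in aged IgG2a against young (log2 -1.90 ± 0.52 SE, adjusted p = 0.0327) and was 3.41-fold higher in aPD1ab against IgG2a (log2 1.77 ± 0.53, adjusted p = 0.0395). These were -2.74 and 2.61 without aged IgG2a replicate 1.

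Ehhadh, the bifunctional hydratase and dehydrogenase of the straight chain route, was at 262, 314, 335, 200.0 and 197 CPM in young libraries. It was at 162, 30.2, 47.0 and 30.6 in aged IgG2a and at 127.5, 359, 124, and 105 in aged aPD1ab libraries. The young and aged IgG2a values did not overlap, and 3 of the 4 aPD1ab libraries were below aged IgG2a replicate 1. Ehhadh decreased 3.87-fold in aged IgG2a against young (log2 -1.95 ± 0.53, adjusted p = 0.033). Its difference between aPD1ab and IgG2a was 1.405 ± 0.54 on the log2 scale and did not pass (adjusted p = 0.0838), but passed without aged IgG2a replicate 1 (2.32 ± 0.42, adjusted p = 0.00132).

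Acaa1a, a thiolase that makes the last cut of the straight chain spiral, behaved differently. It was at 79.8, 84.4, 90.8, 69.8 and 82.0 CPM in young libraries, at 77.6, 75.1, 65.1 and 68.3 in aged IgG2a and at 92.3, 142, 120.0 and 129 in aged aPD1ab libraries. Every aPD1ab library was above every other library, and the young and aged IgG2a ranges overlapped. Acaa1a increased 1.69-fold in aPD1ab against IgG2a (log2 0.755 ± 0.14, adjusted p = 0.0196) and 1.48-fold against young (log2 0.57 ± 0.13, adjusted p = 0.0112). This difference from young passed in every other fit made, leaving out any 1 library included, the lowest being 0.49. Its near copy Acaa1b had a wider range, 42.7 to 99.0 CPM in young, 9.81 to 70.7 in aged IgG2a and 52.6 to 207 in aPD1ab libraries, and passed in no comparison until aged IgG2a replicate 1 was left out (log2 -2.31 and 2.73). The ratio of Acaa1b to Acaa1a was 0.612 to 1.09 in young libraries, 0.911 in aged IgG2a replicate 1, 0.159, 0.36 and 0.144 in replicates 2 to 4, and 0.435 to 1.46 in aPD1ab libraries.

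Scp2, a thiolase for branched chains that also yields a sterol carrier, was at 238, 229, 283, 236 and 261 CPM in young, 226, 112, 121 and 129 in aged IgG2a and 211, 495, 254 and 304 in aged aPD1ab libraries. All aged IgG2a libraries lay below the young range, replicate 1 only just. Its decrease in aged IgG2a against young did not pass (log2 -0.76 ± 0.26, adjusted p = 0.0637). Scp2 was 2.15-fold higher in aPD1ab than in IgG2a (log2 1.10 ± 0.27, adjusted p = 0.0225). Acox3, an oxidase of branched chains, was 1.44-fold lower in aged IgG2a (93.0 ± 7.93 CPM, SD, n = 4) than in young (134 ± 18.0, n = 5). Its log2 difference was -0.52 ± 0.16 (adjusted p = 0.0442), and in aPD1ab libraries it was at 129 ± 30.9 CPM (n = 4). Hsd17b4, the bifunctional enzyme of the branched route, ranged from 117 to 130 CPM in young, 77.6 to 135 in aged IgG2a and 110 to 170 in aPD1ab libraries, and passed only without aged IgG2a replicate 1 (log2 -0.57 and 0.69).

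Among the auxiliary enzymes, which feed awkward chains into the spiral, Amacr gave the steadiest decrease. Amacr, the racemase that turns branched acyl-CoA into the form the oxidases accept, was at 87.5, 78.8, 96.3, 73.3 and 93.2 CPM in young libraries. It was at 46.2, 14.2, 18.5 and 17.5 in aged IgG2a and at 56.7, 102, 58.1 and 59.5 in aged aPD1ab libraries. The aged IgG2a values overlapped neither other group, and 3 of 4 aPD1ab values lay below the young range. Amacr decreased 3.55-fold in aged IgG2a against young (log2 -1.83 ± 0.32, adjusted p = 0.00946), and this passed without any 1 of the 13 libraries. It was 2.85-fold higher in aPD1ab than in IgG2a (log2 1.51 ± 0.33, adjusted p = 0.0196).

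Pecr, a trans-2-enoyl-CoA reductase, was at 116.5, 120, 167, 96.5 and 116 CPM in young, 75.5, 21.1, 29.1 and 24.3 in aged IgG2a and 92.7, 241, 103 and 119 in aged aPD1ab libraries. The aged IgG2a libraries were below all others, and the young and aPD1ab ranges overlapped. Pecr decreased 3.27-fold in aged IgG2a against young (log2 -1.71 ± 0.39, adjusted p = 0.0209) and was 3.7-fold higher in aPD1ab than in IgG2a (log2 1.89 ± 0.41, adjusted p = 0.0196). Decr2, the reductase that removes awkward double bonds, was higher in aPD1ab than in IgG2a (34.4 ± 8.61 against 21.1 ± 6.46 CPM, SD, n = 4 each; log2 0.70 ± 0.21, adjusted p = 0.0373). Its difference between aged IgG2a and young was -0.40 ± 0.20 (adjusted p = 0.171).

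Alpha-oxidation rests on Phyh, which hydroxylates phytanoyl-CoA, and Hacl1, the lyase that takes off a single carbon. Phyh was at 289, 265, 335, 322 and 294 CPM in young, 348, 154, 154 and 147.5 in aged IgG2a and 287, 410, 343 and 299.6 in aged aPD1ab libraries. Aged IgG2a replicate 1 was above every young library and the other 3 below every one of them, so the group straddled the young range. Phyh passed in no comparison of all 13 libraries (log2 -0.58 ± 0.24, adjusted p = 0.116, and 0.74 ± 0.26, adjusted p = 0.0605). Without that library it passed in the first and second comparisons (-0.99 and 1.14, adjusted p = 0.000428 and 0.000212). Hacl1 was 2.52-fold higher in aPD1ab than in IgG2a (32.2 ± 15.4 against 12.7 ± 6.29 CPM, SD, n = 4 each; log2 1.335 ± 0.36, adjusted p = 0.0289), with the aPD1ab libraries spread from 15.2 to 47.0.

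Cat encodes catalase, which splits hydrogen peroxide. Cat was at 406, 418, 472, 352 and 418 CPM in young, 342, 143, 181 and 161.5 in aged IgG2a and 297, 702, 353 and 482 in aged aPD1ab libraries. All aged IgG2a libraries were below the young range, and replicate 1 was above 1 aPD1ab library. Cat decreased 2-fold in aged IgG2a against young (log2 -0.999 ± 0.29, adjusted p = 0.0392) and was 2.22-fold higher in aPD1ab than in IgG2a (log2 1.15 ± 0.30, adjusted p = 0.0269). The log2 differences were -1.355 and 1.51 without aged IgG2a replicate 1. Hao2, a hydroxy acid oxidase that makes hydrogen peroxide, ranged over 68.7 to 125 CPM in young, 21.8 to 118 in aged IgG2a and 77.6 to 349.5 in aPD1ab libraries. It did not pass with all libraries (log2 -0.94 ± 0.52 and 1.70 ± 0.55, adjusted p = 0.22 and 0.0502).

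**Figure D3:**
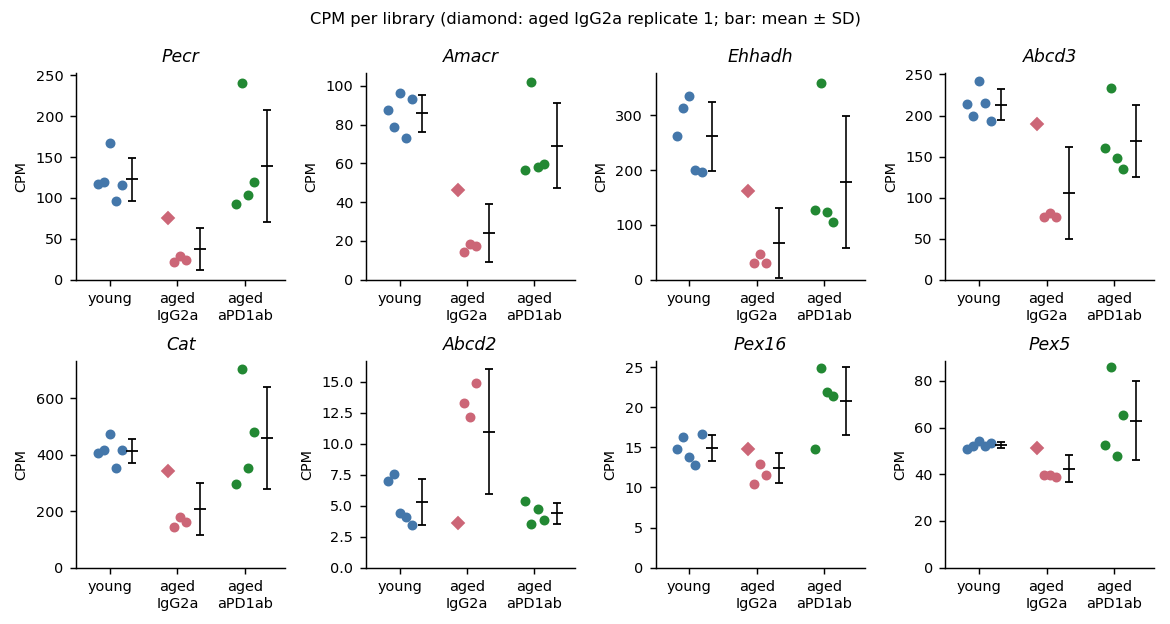
CPM in every library (points, grouped along the x axis) for 8 genes, with the mean ± SD of each group beside them (young n = 5, aged groups n = 4) and each y axis starting at 0. Aged IgG2a replicate 1 (diamond) lies above the other aged IgG2a libraries in 7 of the 8 genes and below them for Abcd2, where it is at 3.61 CPM against 12.1 to 14.9.

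The ABC transporters parted. Abcd3 carries branched chain and bile acid precursors across the membrane, and Abcd2 carries very long chain acyl-CoA. Abcd3 was at 214, 200.0, 242, 215 and 193 CPM in young, 190, 76.7, 81.3 and 75.9 in aged IgG2a and 160, 233, 149 and 134.5 in aged aPD1ab libraries. Aged IgG2a replicate 1 was just below the young range and the other 3 far below it. Abcd3 decreased 2.01-fold in aged IgG2a against young (log2 -1.005 ± 0.27, adjusted p = 0.0322). Its difference between aPD1ab and IgG2a did not pass (0.67 ± 0.28, adjusted p = 0.105) unless aged IgG2a replicate 1 was left out (1.12 ± 0.17, adjusted p = 0.000466).

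Abcd2 was the only member called lower in aPD1ab than in IgG2a libraries. It was at 6.96, 7.54, 4.45, 4.06 and 3.47 CPM in young, 3.61, 13.2, 12.1 and 14.9 in aged IgG2a and 5.40, 3.50, 4.76 and 3.88 in aged aPD1ab libraries. Aged IgG2a replicates 2 to 4 were above the other 10 libraries, and replicate 1 was near the bottom. The difference between aPD1ab and IgG2a was -1.32 ± 0.38 on the log2 scale (adjusted p = 0.036), and that between aged IgG2a and young was 1.04 ± 0.35 (adjusted p = 0.0642). They were -1.61 and 1.34 without aged IgG2a replicate 1 (adjusted p = 0.000674 and 0.00153). The macrophage sum was highest in the same 3 libraries. Of its 6 markers 4 were higher in aged IgG2a than in young and 3 were lower in aPD1ab than in IgG2a, against 6.36% and 6.14% of genes. The part of macrophage RNA in the level of Abcd2 was not tested.

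Pxmp4 and Pxmp2 are small proteins of the peroxisomal membrane, the second known as a channel. Pxmp4 was at 36.8, 38.0, 35.0, 28.2 and 36.7 CPM in young, 30.4, 14.7, 16.3 and 14.2 in aged IgG2a and 26.2, 79.4, 31.8 and 32.0 in aged aPD1ab libraries. Aged aPD1ab replicate 2 was above all other libraries, and the other 3 aPD1ab values lay within the young range or just under it. Both genes were higher in aPD1ab than in IgG2a (Pxmp4 log2 1.16 ± 0.34, adjusted p = 0.0357, and Pxmp2 log2 1.28 ± 0.33, adjusted p = 0.0252). Without aged IgG2a replicate 1, Pxmp2 was also higher in aPD1ab than in young (10.4 ± 3.35, n = 4, against 6.04 ± 1.28 CPM, SD, n = 5; log2 0.78 ± 0.23, adjusted p = 0.0274).

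The median log2 difference of the 11 peroxins was -0.26 in aged IgG2a against young and 0.43 in aPD1ab against IgG2a, where the 18 enzymes, transporters and channels had -0.82 and 1.15. The gap between the sets was not tested. No peroxin passed in the first comparison (edgeR), with 4 of 11 lower at an unadjusted p under 0.05, against 17.8% of genes. DESeq2 called 1 lower, against 10.8% of genes, limma voom 8, against 26.4%, and edgeR without aged IgG2a replicate 1 called 6, against 22.0%. In the second comparison 6 of 11 were higher, against 11.4% of genes, and 9 of 11 without that library, against 22.9%.

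Of the membrane assembly peroxins, which insert membrane proteins and begin the organelle, Pex16 and Pex19 were higher in aPD1ab than in IgG2a. Pex16 was at 14.8, 16.3, 13.8, 12.8 and 16.6 CPM in young, 14.8, 10.4, 12.98 and 11.6 in aged IgG2a and 14.8, 24.9, 21.9 and 21.4 in aged aPD1ab libraries. Aged aPD1ab replicate 1 was level with the young libraries and the other 3 were above all of the rest. Its log2 difference was 0.74 ± 0.16 from IgG2a (adjusted p = 0.0198) and 0.48 ± 0.15 from young (adjusted p = 0.0461). The second of these did not pass without any 1 of the 5 young libraries or without aPD1ab replicate 2, 3 or 4, its lowest value being 0.39. Pex19, the shuttle that holds new membrane proteins, was at 62.1, 58.3, 64.8, 60.3 and 64.9 CPM in young, 67.4, 50.6, 48.1 and 46.0 in aged IgG2a and 65.6, 74.3, 68.1 and 65.5 in aged aPD1ab libraries. Aged IgG2a replicate 1 was above the young range and the other 3 below it, and the log2 difference of aPD1ab from IgG2a was 0.37 ± 0.12 (adjusted p = 0.0495). Pex3, the anchor of Pex19, was at 19.7 ± 0.77 (SD, n = 5), 18.4 ± 2.83 (n = 4) and 18.4 ± 1.99 CPM (n = 4), with log2 differences of -0.09 ± 0.11 and -0.01 ± 0.12.

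The import receptors are Pex5, which reads the address at the end of the cargo shown above, and Pex7, which reads the type 2 address. Pex5 was at 50.9, 52.1, 54.3, 52.1 and 53.6 CPM in young, 51.1, 39.5, 39.8 and 39.0 in aged IgG2a and 52.8, 86.0, 47.9 and 65.5 in aged aPD1ab libraries. The young libraries lay close together, aged IgG2a replicate 1 was among them and the other 3 were below all of the rest. The difference of aPD1ab from IgG2a was 0.57 ± 0.16 on the log2 scale (adjusted p = 0.0328), and that of aged IgG2a from young was -0.31 ± 0.15 (adjusted p = 0.17). Pex7 had differences of -0.21 ± 0.15 and 0.43 ± 0.15 (adjusted p = 0.324 and 0.0667).

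Pex14 and Pex13 form the dock at which a loaded receptor meets the membrane. Pex14 was at 13.3, 13.5, 13.1, 12.0 and 13.6 CPM in young, 12.1, 9.41, 8.73 and 9.26 in aged IgG2a and 13.3, 19.8, 14.6 and 14.2 in aged aPD1ab libraries. Every aPD1ab library was above every aged IgG2a library, by 1.56-fold in the fit (log2 0.645 ± 0.14, adjusted p = 0.0198). Pex13 was at 24.7, 22.9, 28.2, 26.5 and 22.1 CPM in young, 24.0, 20.1, 19.2 and 18.2 in aged IgG2a and 20.9, 25.6, 27.3 and 25.3 in aged aPD1ab libraries. Its groups overlapped and it did not pass (log2 -0.285 ± 0.12 and 0.28 ± 0.12, adjusted p = 0.107 and 0.121).

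Pex2 and Pex10 belong to the ring that tags the spent receptor with ubiquitin, and Pex6 to the motor that pulls it out. Pex2 was at 37.8, 32.7, 38.6, 37.9 and 36.2 CPM in young, 39.5, 32.7, 32.3 and 31.0 in aged IgG2a and 36.1, 44.2, 38.7 and 34.0 in aged aPD1ab libraries. Its differences were small and did not pass (-0.11 ± 0.105 and 0.175 ± 0.11, adjusted p = 0.471 and 0.272), nor did those of Pex10 (-0.12 ± 0.14 and 0.34 ± 0.15). Pex6 was higher in aPD1ab than in IgG2a (56.1 ± 6.90 against 40.0 ± 4.90 CPM, SD, n = 4 each; log2 0.49 ± 0.12, adjusted p = 0.0211). Pex11a, which drives division of the organelle, ran from 19.1 to 26.3 CPM in young, 8.92 to 20.4 in aged IgG2a and 17.0 to 50.2 in aPD1ab libraries, and was 2.23-fold higher in aPD1ab than in IgG2a (log2 1.16 ± 0.34, adjusted p = 0.0372).

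**Figure D4:**
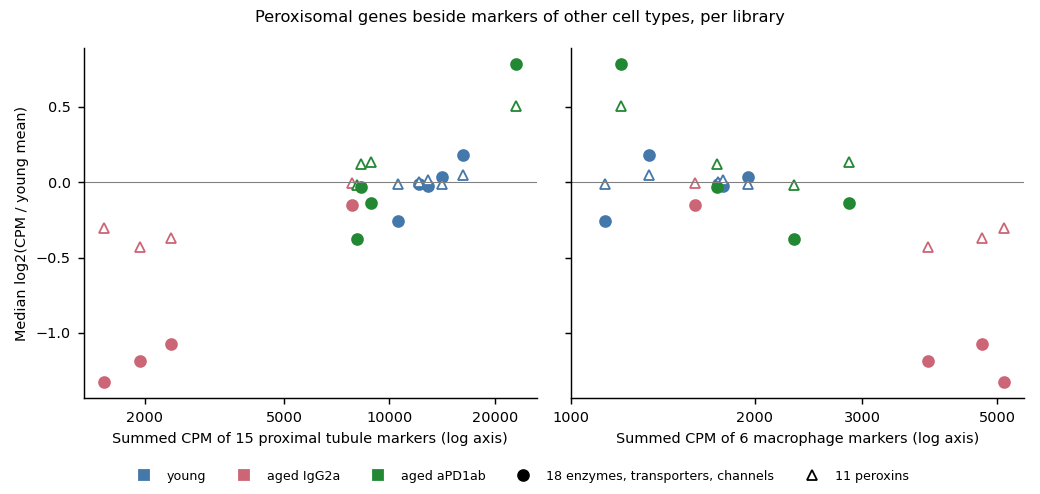
For each of 13 libraries, the median log2(CPM / young mean) of the 18 enzymes, transporters and channels (filled circles) and of the 11 peroxins (open triangles) is plotted over the summed CPM of 15 proximal tubule markers (left) or 6 macrophage markers (right), both on log axes. Aged IgG2a replicates 2 to 4 have the lowest medians (-1.33, -1.07 and -1.19 for the enzymes), the lowest tubule sums and the highest macrophage sums, and aged aPD1ab replicate 2 has the highest medians (0.78 and 0.51) and tubule sum.

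Aged IgG2a replicates 2 to 4 had the lowest medians of both sets and the lowest tubule sums, and aged aPD1ab replicate 2 the highest of each. Between these the order of the peroxin medians was not that of the sums: aged aPD1ab replicates 3 and 4 (0.13 and 0.12) were above all young libraries, whose tubule sums were higher. The enzyme median was -0.15 in aged IgG2a replicate 1 and -1.33, -1.07 and -1.19 in replicates 2 to 4. It was -0.38, 0.78, -0.14 and -0.03 in aged aPD1ab replicates 1 to 4. The peroxin median spanned a narrower range, from -0.43 in aged IgG2a replicate 4 to 0.51 in aged aPD1ab replicate 2. Of the 15 tubule markers 14 were lower in aged IgG2a than in young and 9 were higher in aPD1ab than in IgG2a, against 7.61% and 11.4% of genes. Their medians were -1.88 and 1.78 on the log2 scale. Of the 10 podocyte markers 8 were lower and 1 higher in the first comparison, against 7.61% and 6.36% of genes. In the second 1 podocyte marker was higher, against 11.4%.

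The other genes of the organelle were counted by list. Of 35 other matrix enzymes 32 were tested. In aged IgG2a against young 14 were lower and 1 higher, against 7.61% and 6.36% of all genes. In aPD1ab against IgG2a 11 were higher and 0 lower (11.4% and 6.14% of genes). In aPD1ab against young 1 was higher and 2 lower (9.13% and 8.64%). Without aged IgG2a replicate 1, 27 were lower in the first comparison and 26 higher in the second (22.0% and 22.9%). No other left-out library was counted for these lists. Those lower in aged IgG2a than in young with the smallest p were Agps and Far1, described below, and Crot, which moves shortened chains onto carnitine (log2 -1.02 ± 0.24, adjusted p = 0.0224). Higher in aPD1ab than in IgG2a were, among others, Tysnd1, the protease that trims imported enzymes (0.89 ± 0.15), Dao, the D-amino acid oxidase (2.23 ± 0.47), and Idh1 (1.70 ± 0.38).

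Agps and Far1 did not follow the others. Agps makes the ether bond of plasmalogens and Far1 supplies the fatty alcohol for it. Agps was at 129.5 ± 10.5 CPM in young (SD, n = 5), 67.0 ± 2.595 in aged IgG2a (n = 4) and 59.1 ± 10.7 in aged aPD1ab libraries (n = 4). It was lower than in young in both aged groups (log2 -0.95 ± 0.13, adjusted p = 0.00251, and -1.13 ± 0.13, adjusted p = 0.00091). Far1 was likewise lower in both (-0.63 ± 0.12, adjusted p = 0.0126, and -0.64 ± 0.12, adjusted p = 0.00597). Neither passed between the aged groups (-0.18 ± 0.13, adjusted p = 0.348, and -0.01 ± 0.13, adjusted p = 0.975). Leaving out aged IgG2a replicate 1 changed none of these calls. Paox, an oxidase of acetylated polyamines, was higher than in young in both aged groups (1.34 ± 0.18, adjusted p = 0.00247, and 1.06 ± 0.18, adjusted p = 0.00386). 

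Of 18 other peroxins and membrane proteins matched and tested, 4 were lower and 0 higher in aged IgG2a than in young, against 7.61% and 6.36% of genes. Mpv17l, Acbd4 and Pex11g were among the 4. In aPD1ab against IgG2a 6 were higher and 1 lower, against 11.4% and 6.14% of genes. Acbd4 (1.36 ± 0.27), Fis1 (0.59 ± 0.12) and Mpv17 (0.67 ± 0.17) had the smallest p among those higher. Without aged IgG2a replicate 1, 10 of the 18 were lower and 1 higher in the first comparison, against 22.0% and 16.5% of genes. In the second 13 were then higher and 1 lower, against 22.9% and 16.1%. The PPAR list held 20 genes, of which 19 were tested. In the first comparison 4 were lower and 2 higher, against 7.61% and 6.36% of genes. In the second 1 was higher and 0 lower, against 11.4% and 6.14%. In aged IgG2a against young 4 were lower, among them Ppara itself (20.3 ± 3.25, n = 5, to 6.79 ± 4.98 CPM, SD, n = 4; log2 -1.56 ± 0.36, adjusted p = 0.022), Angptl4, Cpt1a and Cyp4a12a. Pparg (1.503 ± 0.295) and Plin2 (1.07 ± 0.25), a coat protein of lipid droplets, were higher. In aPD1ab against IgG2a only Rxra, the partner of PPAR receptors, passed (0.51 ± 0.16, adjusted p = 0.0456), and the difference of Ppara was 0.81 ± 0.37 (adjusted p = 0.137).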

How the data were processed

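mRNA-Seq libraries of MACS-sorted podocyte fractions were made by the authors with TruSeq kits. Their deposited table holds raw counts per Ensembl gene, as whole numbers. HISAT2 and featureCounts, and the builds mm10 and GRCm38, are named in the submitters' processing notes, with no versions. The strand setting is not given in the sources used here. Columns were tied to groups only by the library numbers in the study's principal component plot, which gave 13 libraries; 2 other columns were not used. No column could be tied to 1 sample. The labels name 5 mice a group, so p-values measure the spread between these libraries; no 2 of a group agreed within sampling noise.

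Symbols and positions came from GENCODE M21. The main test was edgeR 4.0.16 (quasi-likelihood, robust, TMM, filterByExpr) in R 4.3.3, with 1 fit of the 3 groups, which shares their spread, and Benjamini-Hochberg adjustment over 16330 genes. Calls were made at an adjusted p under 0.05. DESeq2 1.42.0, limma 3.58.1 (voom with sample weights), other scalings and filters, a 2-fold limit, fits of the 2 groups compared, a proximal tubule score as covariate, and leaving out each library were alternatives; the fit of 2 groups without aged IgG2a replicate 1 was chosen after seeing the data. Scripts were tested on simulated data. RPKM used the union of exons. Totals and the floor of 3 counts cover counting error only.

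All 29 members are named. Values in each library are given for those with the smallest p in the first 2 comparisons (up to 5 each) and for the highest per length in each role, with Abcd2 added after its values were seen. Up to 3 genes per direction of the other lists are named by smallest p, and Pex11g, Cyp4a12a and the second difference of Ppara were added after their values were seen. The members and lists were chosen with earlier results of these data known. Some genes of the other lists are counted but not reported here by name.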

Additional observations from a re-analysis of the deposited data

Results flagged for a closer look

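Among 29 genes in 3 groups, 87 sets of libraries were checked for a single library far from the others of its group, and 9 were found. For a set taken alone, chance gives about 1 in 20. The sets come from the same 13 libraries and are not independent, so the count cannot be weighed against that rate. Aged IgG2a replicate 1 accounted for 4 of the 9. It was high for Phyh (348.4 CPM, the nearest library at 154.1), Abcd3 (189.8, nearest 81.33) and Pex5 (51.12, nearest 39.75), and low for Abcd2 (3.605, nearest 12.12). Aged aPD1ab replicate 2 was high for Ehhadh (358.9 CPM, nearest 127.5) and Amacr (101.9, nearest 59.48). In the young group replicate 3 was high for Decr2 (32.42, nearest 27.62), replicate 4 low for Pxmp4 (28.16, nearest 34.96) and replicate 2 low for Pex6 (44.24, nearest 50.3).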

How the results depend on the processing

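Of the 29 genes, the number lower in aged IgG2a than in young was 7 in edgeR with all libraries, against 7.61% of all genes. It was 25 with limma voom (26.4% of genes), 3 without the filter on low counts (2.55%) and 0 with the proximal tubule score as a covariate (0.0367%). When only the 2 groups were fitted without aged IgG2a replicate 1 it was 23 (23.5%). Leaving out 1 library gave 1 to 22, the highest being without aged IgG2a replicate 1 (22.0%). The number higher there, 0 (6.36% of genes), was 1 with DESeq2 (13.3%), with limma voom (20.5%) and in the added fit (22.1%), and 0 to 1 when 1 library was left out. The number higher in aPD1ab than in IgG2a, 16 (11.4% of genes), was 26 with limma voom (22.1%) and 9 without the filter (4.02%). It was 0 when only the 2 groups were fitted and 0 with the covariate, where no gene at all passed. It was 9 over 2-fold and 0 to 26 when 1 library was left out. The share of genes over 2-fold is not given here. The number lower there, 1 (6.14% of genes), was 0 when only the 2 groups were fitted and 0 with the covariate, again with no gene passing. It was 0 to 1 when 1 library was left out. The number higher in aPD1ab than in young, 2 (9.13% of genes), was 1 without the filter (3.78%) and 11 with the covariate (16.1%). It was 0 over 2-fold and 1 to 3 when 1 library was left out. The number lower, 0 (8.64%), was 4 with limma voom (12.7%). When a library other than aged IgG2a replicate 1 was left out, the share of all genes was not counted. The cause of these moves was not tested. No paired analysis was possible because the labels give no replicate numbers or pairs.

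With the covariate the log2 difference of aged IgG2a from young turned for Acox2 (0.036), Hsd17b4 (0.334), Acaa1a (0.11), Acaa1b (0.748), Scp2 (0.297), Decr2 (0.382), Phyh (0.285), Hacl1 (0.577), Cat (0.176), Hao2 (1.025), Abcd2 (-0.509), Abcd3 (0.029), Pxmp2 (0.502) and Pxmp4 (0.448). It turned likewise for Pex3 (0.204), Pex16 (0.192), Pex19 (0.144), Pex5 (0.27), Pex7 (0.266), Pex14 (0.081), Pex2 (0.2), Pex10 (0.222), Pex6 (0.024) and Pex11a (0.493). That of aPD1ab from IgG2a turned for Acox2 (-0.068), Ehhadh (-0.384), Hsd17b4 (-0.134), Acaa1b (-0.156), Phyh (-0.004), Hao2 (-0.144), Abcd2 (0.04), Abcd3 (-0.229), Pxmp4 (-0.11), Pex2 (-0.099) and Pex11a (-0.127). Near 0, Pex3 between the aged groups turned with limma voom (0.013) and in the added fit (0.082), and Pex13 between aPD1ab and young turned with relative log expression factors (0.003), DESeq2 (0.002), limma voom (0.008), only 2 groups (0.004), the added fit (0.004) and the covariate (0.027). With limma voom Acaa1b (-0.103), Pecr (-0.052), Cat (0), Pxmp4 (-0.086) and Pex11a (-0.056) turned between aPD1ab and young. Leaving out 1 library, Pex3 ranged from -0.205 to 0.013 in the first and -0.105 to 0.106 in the second comparison. In the third the ranges were -0.812 to 0.083 for Acox2, -0.223 to 0.024 for Acox3, -0.02 to 0.198 for Hsd17b4, -0.223 to 0.627 for Acaa1b, -0.223 to 0.329 for Pecr, -0.126 to 0.31 for Cat, -0.214 to 0.451 for Pxmp4, -0.055 to 0.068 for Pex13, -0.008 to 0.116 for Pex2 and -0.184 to 0.455 for Pex11a.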

Other observations

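Markers of other cells in the fraction, beside those given above, had these summed CPM. The 4 thick ascending limb markers stood at 4028 to 6290 in young, 3197 to 6875 in aged IgG2a and 2537 to 5505 in aged aPD1ab libraries. The 5 T cell markers stood at 10.6 to 18.2 in young, 14.2 to 44.8 in aged IgG2a and 12.7 to 17.1 in aged aPD1ab libraries. Of these markers 2 were higher in aged IgG2a than in young and 1 was lower in aPD1ab than in IgG2a, against 6.36% and 6.14% of genes. Most of the sum was Cd4, at 35.7, 33.7 and 13.8 CPM in aged IgG2a replicates 2 to 4. Cd3e, Cd3g and Cd3d were low, at 0.216 to 3.32 CPM there and 0 to 0.916 in young. The 7 endothelial markers stood at 694 to 1043, 527 to 658 and 329 to 901.

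Among the genes tied to PPAR receptors, Fabp1, a fatty acid carrier of tubule cells and liver, was near the limit of detection. It was at 0.18 ± 0.12 CPM in young (SD, n = 5) and 0.16 to 3.01 in aPD1ab libraries. Fabp1 was higher in aPD1ab than in young (log2 2.88 ± 0.75, adjusted p = 0.02, edgeR), and so was Plin2 (0.82 ± 0.25, adjusted p = 0.0397). Med1, a coactivator, was lower in aPD1ab than in young (-0.39 ± 0.09, adjusted p = 0.0124).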
